A study of Homo sapiens with 9 samples.

Results

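The 10 genes described here encode the cyclins, kinases, inhibitor and gatekeeper of the G1 phase: the D cyclins CCND1, CCND2 and CCND3, the E cyclins CCNE1 and CCNE2, the kinases CDK4, CDK6 and CDK2, the p27 inhibitor CDKN1B and the retinoblastoma protein gene RB1. They were taken by name, through their Ensembl identifiers, as 10 of the 41041 genes measured, and all 10 were expressed highly enough to be tested (a mean of at least 1 FPKM, which 12662 genes reached). FPKM is a count of sequenced fragments scaled by transcript length and by library size, so levels of different genes can be set side by side per length.

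In G1, D cyclins bind CDK4 or CDK6 and begin the phosphorylation of RB, which in its unphosphorylated form holds back the E2F transcription factors. Released E2F factors drive transcription of the E cyclin genes among others, and E cyclins with CDK2 complete the phosphorylation of RB and open S phase. The protein p27 inhibits cyclin E with CDK2, and is also carried by the D cyclin complexes. In colorectal cancer, where Wnt signalling is commonly active, CCND1 and MYC are well known as genes that respond to it.

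The cells were SW480, an established human colorectal cancer line, and every group was kept at 1% oxygen. There were 3 groups of 3 biological replicates. They received sulforaphane with 5-fluorouracil (SFN+5-FU), sulforaphane alone at 25 µM (SFN), or neither compound (control). Sulforaphane is an isothiocyanate from cruciferous vegetables, and 5-fluorouracil is a pyrimidine analogue that inhibits thymidylate synthase. Hypoxia and treatment are each labelled as 48 h. The 5-fluorouracil dose, and the sulforaphane dose beside it, are not in the labels used here. These samples include no group on 5-fluorouracil alone and none at normal oxygen, so a difference between SFN+5-FU and control belongs to the pair of compounds. What separated the replicates (culture, passage or day) is not stated, and the p-values measure the spread between these libraries.

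Summed over genes, FPKM came to 259184 to 272235 per library, from an unknown number of fragments. All 7 colon epithelial markers were expressed highly enough to be tested, with EPCAM between 114 and 144 FPKM. VIL1, the lowest of them, was between 0.79 and 3.98 FPKM, with its lowest values in SFN+5-FU. Of 8 markers of blood, endothelial and stromal cells, PTPRC and CDH5 were at 0 in all 9 libraries, and CD3E, PECAM1, COL3A1 and PDGFRB did not exceed 0.13 FPKM. CD14 was between 0.86 and 1.98 FPKM and COL1A1 between 0.57 and 1.99 FPKM, and these were the only 2 of the 8 that were tested. Of the epithelial markers 6 were lower in SFN+5-FU than in control, where 28.0% of all tested genes were, and 4 in SFN than in control (3 without SFN replicate 2), where 22.5% of all tested genes were (26.9% without it). CD14 and COL1A1 fell in SFN+5-FU (adjusted p = 0.00662 and 0.000120), and COL1A1 fell in SFN with and without SFN replicate 2. The part of these markers in the results below was not tested. One library stood apart from its label. Across tested genes, SFN replicate 2 had a Pearson correlation on log2(FPKM + 1) of 0.993 with each SFN+5-FU library, against 0.963 and 0.968 with the other SFN libraries, which correlated with each other at 0.990. It lay nearer the SFN+5-FU mean than the mean of the other SFN libraries for 8 of the 10 genes (all but CCND2 and CDKN1B), as it did for 82.6% of all tested genes. It is kept in its labelled group, calls and fold changes that use SFN are given with and without it, and the cause of its position was not tested. It was picked out by these same values, so p-values and calls without it carry that choice in every comparison and are descriptive. In bulk RNA of this kind, a change in the share of cells in G1 and a change in RNA per cell cannot be told apart.

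Promoters of 3 of the genes are shown because they belong to a kinase and a cyclin that rose with both treatments and to the inhibitor that fell. Each is the 250 bases before the start of the gene in RefSeq (assembly GRCh38.p14), 5′ to 3′ on the strand of the gene, with matches to any of the searched motifs in capitals. They lie at chr12:57752311-57752560 on the minus strand (CDK4), chr19:29811741-29811990 on the plus strand (CCNE1) and chr12:12717118-12717367 on the plus strand (CDKN1B).
CDK4: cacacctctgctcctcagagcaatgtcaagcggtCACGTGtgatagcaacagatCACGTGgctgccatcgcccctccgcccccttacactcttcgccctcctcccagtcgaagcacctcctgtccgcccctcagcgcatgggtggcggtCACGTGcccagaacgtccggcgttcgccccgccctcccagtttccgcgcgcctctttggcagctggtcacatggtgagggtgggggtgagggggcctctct
CCNE1: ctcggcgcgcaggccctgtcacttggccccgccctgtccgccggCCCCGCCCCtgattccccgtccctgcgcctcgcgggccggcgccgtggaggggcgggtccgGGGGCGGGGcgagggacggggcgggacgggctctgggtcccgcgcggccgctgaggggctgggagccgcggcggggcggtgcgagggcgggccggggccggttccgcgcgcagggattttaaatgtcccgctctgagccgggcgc
CDKN1B: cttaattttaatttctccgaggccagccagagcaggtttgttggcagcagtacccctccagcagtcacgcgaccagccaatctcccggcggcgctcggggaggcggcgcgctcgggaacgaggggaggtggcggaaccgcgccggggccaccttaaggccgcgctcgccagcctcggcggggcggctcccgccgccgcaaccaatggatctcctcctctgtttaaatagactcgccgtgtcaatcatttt
Both strands were searched for 6 motifs. These were the E-box CACGTG bound by MYC and related factors, the E2F motif as TTTCCCGC, TTTCGCGC, TTTGCCGC or TTTGGCGC, the FOXO motif GTAAACA, the TCF/LEF motif CTTTGATC, the CHR element TTTGAA of cell cycle genes, and the GC-box GGGGCGGGG. The CDK4 promoter held 3 E-boxes, the first base of which lies 216, 196 and 101 bases before the start, and no other match. An E-box was held by 6.35% of 35116 human promoters of the same length, and 3 or more by 0.0797% (28 promoters). The CCNE1 promoter held 2 GC-boxes, 206 and 145 bases before the start, a motif held by 15.1% of promoters. None of the 6 motifs was found in the CDKN1B window. The E2F, FOXO, TCF/LEF and CHR motifs, which no shown window held, occurred in 2.79%, 2.98%, 0.547% and 13.3% of promoters. These are matches of letters and not measured binding. Promoters of 6 of the 10 genes, with 9 start sites, were in the table used. CCND3, a cyclin that also rose with both treatments, was among them but is not shown. None of its windows held an E-box, while some held GC-boxes. The windows of CDK6 and RB1, also not shown, held none of the 6 motifs.

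The D cyclins moved in opposite directions. CCND1 was by far the most abundant of the 10 genes and fell with both treatments, CCND2, at a far lower level, fell too, and CCND3 rose. CCND1 was 176, 167 and 155 FPKM in SFN+5-FU, 301, 171 and 293 FPKM in SFN and 425, 440 and 427 FPKM in control. No treated library overlapped the control range, and within SFN the low value is that of replicate 2, which lies inside the SFN+5-FU range. The mean was 166 ± 10.5 FPKM in SFN+5-FU and 431 ± 8.07 FPKM in control (SD, n = 3 each), a ratio of 0.386. On the log2(FPKM + 1) scale, which is used for every fold change below and understates those of genes of low expression, CCND1 fell by 1.37 in SFN+5-FU against control (SE 0.183, 95% interval -1.78 to -0.96, limma adjusted p = 0.000211). In SFN it averaged 255 ± 72.5 FPKM and fell by 0.80 against control (SE 0.183, adjusted p = 0.00608). Without SFN replicate 2 it fell by 0.54 (SE 0.0568, adjusted p = 9.17e-05).

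CCND2, the D cyclin better known from lymphoid and gonadal cells, was 2.52, 1.97 and 2.09 FPKM in SFN+5-FU, 2.59, 2.29 and 2.16 FPKM in SFN and 4.22, 4.01 and 3.18 FPKM in control. Every treated library lay below every control library, and SFN replicate 2 lay between the other SFN libraries. CCND2 fell by 0.59 with SFN+5-FU (SE 0.108, adjusted p = 0.00122) and by 0.52 with SFN (SE 0.108, adjusted p = 0.00374), or by 0.51 without SFN replicate 2 (adjusted p = 0.00554). CCND3, the third D cyclin, was 26.5, 26.7 and 28.9 FPKM in SFN+5-FU, 23.3, 27.7 and 21.2 FPKM in SFN and 17.5, 17.3 and 16.9 FPKM in control. The control libraries differed by less than 1 FPKM and lay below all 6 treated libraries. CCND3 rose by 0.64 with SFN+5-FU (SE 0.0917, adjusted p = 0.000316) and by 0.45 with SFN (SE 0.0917, adjusted p = 0.00322), or by 0.35 without SFN replicate 2 (adjusted p = 0.00110).

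**Figure D1:**
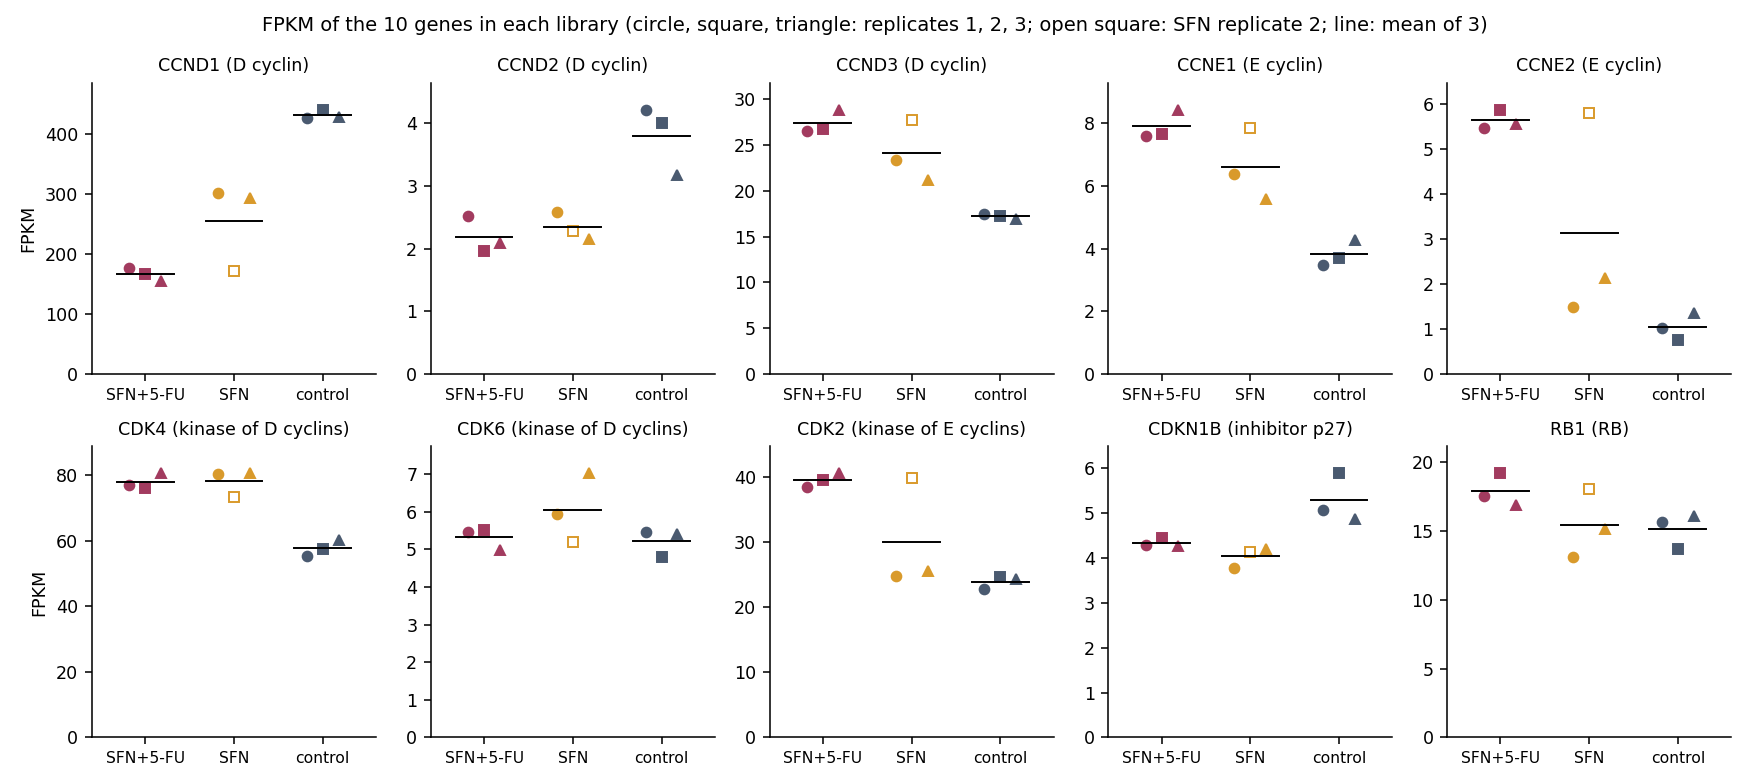
FPKM of each of the 10 genes (vertical axes, linear from 0) in SFN+5-FU, SFN and control libraries. Points are libraries, with circles, squares and triangles for replicates 1, 2 and 3, the open square is SFN replicate 2 and the line is the mean of 3. CCND1 lies between 155 and 176 FPKM in SFN+5-FU and between 425 and 440 FPKM in control, CCND3, CCNE1, CCNE2, CDK4 and CDK2 lie higher in SFN+5-FU than in control, and the open square lies among the SFN+5-FU values for 8 of the genes.

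Because CCND1 made up most of the D cyclin transcripts, their sum moved with it. The sum of the 3 D cyclins was 205, 196 and 186 FPKM in SFN+5-FU, 327, 201 and 316 FPKM in SFN and 447, 461 and 447 FPKM in control. CCND1 supplied 84.9 ± 1.31% of the sum in SFN+5-FU, 89.9 ± 4.19% in SFN and 95.4 ± 0.188% in control (SD, n = 3 each). CCND3 supplied 14.0 ± 1.34% of it in SFN+5-FU, 9.20 ± 3.96% in SFN and 3.81 ± 0.0904% in control. The gain in CCND3 was small beside the fall in CCND1. SFN replicate 2, with a CCND1 share of 85.1%, lay within the SFN+5-FU range of 83.4% to 85.9%, while the other SFN libraries were at 92.1% and 92.6%.

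Both E cyclins rose. CCNE1 was 7.59, 7.66 and 8.43 FPKM in SFN+5-FU, 6.38, 7.85 and 5.58 FPKM in SFN and 3.48, 3.71 and 4.28 FPKM in control. All 6 treated libraries lay above all control libraries. CCNE1 averaged 7.89 ± 0.466 FPKM in SFN+5-FU and 3.82 ± 0.412 FPKM in control, and it rose by 0.88 on the log2 scale (SE 0.113, adjusted p = 0.000172). In SFN, at 6.60 ± 1.15 FPKM, it rose by 0.65 against control (SE 0.113, adjusted p = 0.00151), or by 0.53 without SFN replicate 2 (adjusted p = 0.000950).

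CCNE2, the second E cyclin, showed the greatest fold of the 10 genes in SFN+5-FU and the widest spread in SFN relative to its mean. It was 5.48, 5.88 and 5.55 FPKM in SFN+5-FU, 1.50, 5.81 and 2.13 FPKM in SFN and 1.03, 0.77 and 1.35 FPKM in control. The SFN+5-FU libraries lay close together and far above control, whereas in SFN replicates 1 and 3 were only a little above the highest control library and replicate 2 lay inside the SFN+5-FU range. CCNE2 rose by 1.70 with SFN+5-FU (SE 0.306, 95% interval 1.01 to 2.39, adjusted p = 0.00108), a ratio of mean FPKM of 5.37. With SFN it rose by 0.89 (SE 0.306, adjusted p = 0.0370), or by 0.46 without SFN replicate 2 (SE 0.130, adjusted p = 0.0148). The SFN call did not hold with a pseudocount of 5, without an expression filter, after correction for GC content and length, in a fit of SFN and control alone, or without any 1 of the SFN+5-FU or control libraries, where the adjusted p lay between 0.0534 and 0.111. Exons of INTS8, a subunit of the Integrator complex encoded on the opposite strand, cover 37.1% of the exonic bases of CCNE2 in GENCODE release 29. INTS8 was between 3.47 and 5.39 FPKM in the 9 libraries, above CCNE2 in control. The libraries were made with a protocol that marks strand, but the strand setting of the counting is not given, and without it reads of CCNE2 and INTS8 cannot be told apart there.

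The mix of the E cyclins differed between the libraries. The overlap of CCNE2 with INTS8 bears on these sums, shares and ratios as well. The CCNE1 and CCNE2 levels summed to 13.1, 13.5 and 14.0 FPKM in SFN+5-FU, 7.88, 13.7 and 7.71 FPKM in SFN and 4.51, 4.48 and 5.63 FPKM in control. CCNE2 supplied 41.9, 43.4 and 39.7% of that sum in SFN+5-FU, 19.0, 42.5 and 27.6% in SFN and 22.8, 17.2 and 24.0% in control. The CCNE2 share of SFN replicate 1 lay inside the control range and that of replicate 3 just above it. The sum of the D cyclins over that of the E cyclins was 14.5 ± 1.19 in SFN+5-FU, 32.4 ± 15.3 in SFN (41.4 and 41.0 in replicates 1 and 3) and 93.8 ± 12.7 in control (SD, n = 3 each). The D cyclins were the more abundant transcripts per length in every library.

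Among the kinases, CDK4 and CDK2 rose with SFN+5-FU while CDK6 was not called. CDK4, the main partner of the D cyclins here by level, was 77.0, 76.2 and 80.7 FPKM in SFN+5-FU, 80.5, 73.3 and 80.8 FPKM in SFN and 55.3, 57.5 and 60.4 FPKM in control. It was higher in all 6 treated libraries than in any control library, and the treated groups overlapped each other. CDK4 rose by 0.43 with SFN+5-FU (SE 0.0628, adjusted p = 0.000361) and by 0.43 with SFN (SE 0.0628, adjusted p = 0.000577), or by 0.48 without SFN replicate 2 (adjusted p = 9.72e-05). TSPAN31, a tetraspanin gene on the opposite strand, covers 43.2% of the exonic bases of CDK4. At 5.96 to 8.68 FPKM it was far below CDK4 in every library.

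CDK6, the other kinase of the D cyclins, was 5.47, 5.50 and 4.99 FPKM in SFN+5-FU, 5.94, 5.18 and 7.03 FPKM in SFN and 5.47, 4.80 and 5.40 FPKM in control. The groups overlapped. The log2 fold change was 0.02 with SFN+5-FU (95% interval -0.20 to 0.25, adjusted p = 0.852) and its sign turned under several scalings. With SFN the log2 fold change was 0.17 (95% interval -0.05 to 0.40, adjusted p = 0.179), and without SFN replicate 2 CDK6 rose by 0.26 (adjusted p = 0.0244). CDK4 exceeded CDK6 per length by 14.7 ± 1.28 times in SFN+5-FU, 13.1 ± 1.39 times in SFN and 11.1 ± 0.944 times in control.

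CDK2, the kinase of the E cyclins, followed CCNE2 in its pattern over the libraries. It was 38.6, 39.7 and 40.7 FPKM in SFN+5-FU, 24.9, 39.9 and 25.7 FPKM in SFN and 22.8, 24.7 and 24.3 FPKM in control. SFN replicates 1 and 3 lay within 1 FPKM of the highest control library, and replicate 2 lay among the SFN+5-FU libraries. Replicate 2 lay nearer SFN+5-FU for 82.6% of all tested genes, so its place is not particular to CDK2 and CCNE2. CDK2 rose by 0.71 with SFN+5-FU (SE 0.151, adjusted p = 0.00283). Its log2 fold change with SFN was 0.29 (95% interval -0.05 to 0.63, adjusted p = 0.140) and 0.08 without SFN replicate 2 (95% interval -0.04 to 0.19, adjusted p = 0.241).

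CDKN1B, which encodes p27, fell with both treatments by a small amount. It was 4.29, 4.44 and 4.26 FPKM in SFN+5-FU, 3.77, 4.14 and 4.21 FPKM in SFN and 5.07, 5.90 and 4.88 FPKM in control. Every treated library lay below every control library, and SFN replicate 2 lay between the other SFN libraries. CDKN1B fell by 0.23 with SFN+5-FU (SE 0.0795, adjusted p = 0.0265), a call lost without any 1 of the SFN+5-FU libraries and without control replicate 2, where the adjusted p lay between 0.0533 and 0.109. With SFN it fell by 0.32 (SE 0.0795, adjusted p = 0.00953), or by 0.33 without SFN replicate 2 (adjusted p = 0.00755). Much of the regulation of p27 is known to act on the protein, which was not measured.

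RB1 was 17.6, 19.2 and 16.9 FPKM in SFN+5-FU, 13.1, 18.1 and 15.2 FPKM in SFN and 15.6, 13.7 and 16.1 FPKM in control. The SFN+5-FU libraries lay above all control libraries by a narrow margin, and the SFN libraries spanned the control range. The log2 fold change with SFN+5-FU was 0.23 (95% interval -0.03 to 0.48, adjusted p = 0.0996). Without SFN replicate 2, which narrows the shared spread, the same change of 0.23 passed the threshold (adjusted p = 0.0271), while after correction for GC content and length it was -0.02. With SFN the log2 fold change was 0.02 (95% interval -0.24 to 0.27, adjusted p = 0.906) and -0.09 without SFN replicate 2. The phosphorylation of RB, on which its function turns, was not measured.

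**Figure D2:**
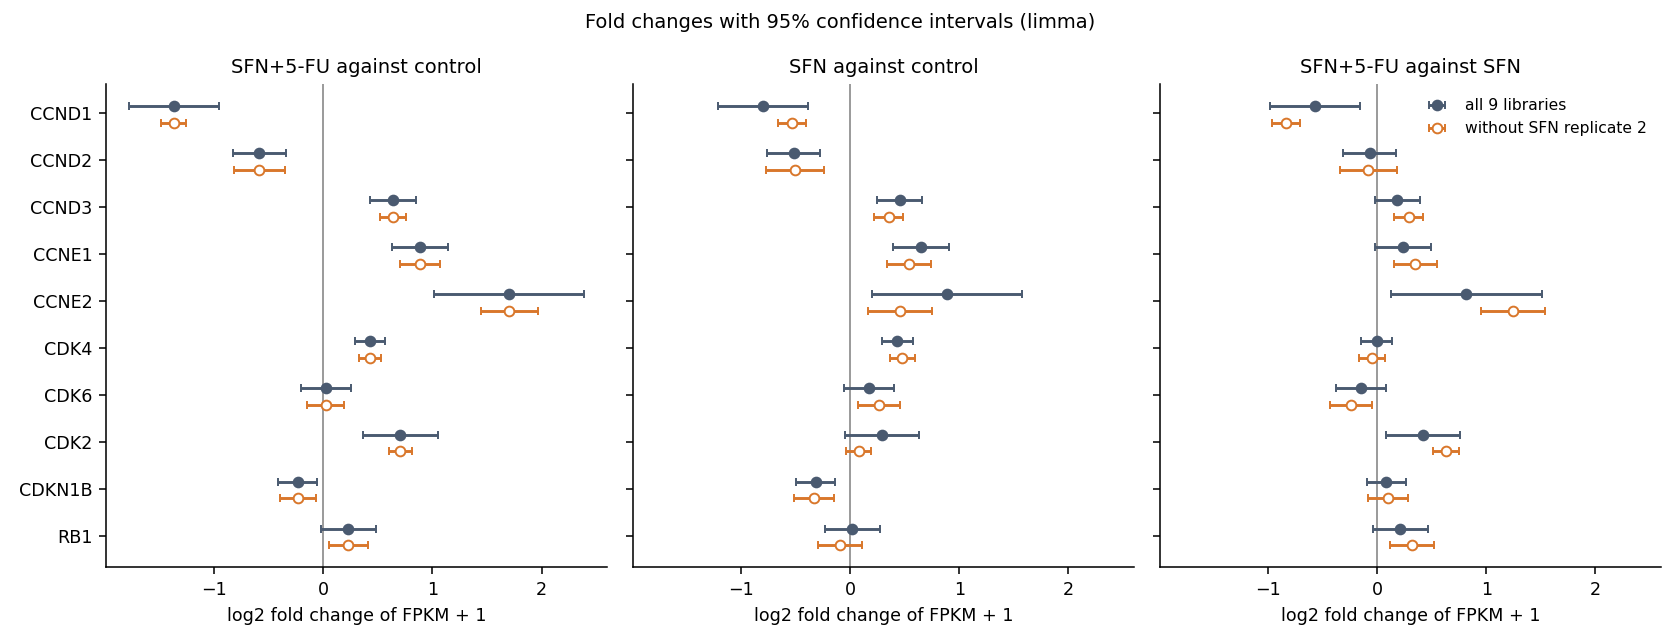
Log2 fold changes of FPKM + 1 (horizontal axes) for the 10 genes in the 3 comparisons, with 95% confidence intervals from limma. Filled points use all 9 libraries and open points leave out SFN replicate 2. In SFN+5-FU against control CCND1 fell by 1.37 and CCNE2 rose by 1.70. In both comparisons that use SFN, leaving out that library moves CCND1, CCNE2 and CDK2. It narrows the intervals there except those of CCND2 and CDKN1B, which widen slightly.

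In number, 8 of the 10 genes were called at an adjusted p of 0.05 in SFN+5-FU against control, 5 higher (CCND3, CCNE1, CCNE2, CDK4 and CDK2) and 3 lower (CCND1, CCND2 and CDKN1B). Over all tested genes 66.2% were called in that comparison, 38.3% higher and 28.0% lower, so the count among 10 genes is near the background. The groups did not overlap for 9 of the 10 genes, against 78.8% of all tested genes. Without SFN replicate 2, RB1 was called as well, which made 9 genes (6 higher and 3 lower) over a background of 74.7%, with 43.4% higher and 31.3% lower. In SFN against control 7 were called, 4 higher (CCND3, CCNE1, CCNE2 and CDK4) and 3 lower (CCND1, CCND2 and CDKN1B), over a background of 50.0% (27.5% higher and 22.5% lower). The groups did not overlap for 8 of the 10, against 57.4% of all tested genes (9 of the 10 and 70.3% without SFN replicate 2). Without SFN replicate 2, 8 were called there (CDK6 also higher), over a background of 56.9%, with 30.0% higher and 26.9% lower. The median log2 fold change of the 10 genes was 0.33 in SFN+5-FU and 0.23 in SFN, against medians of 0.10 and 0.05 over all tested genes. The SFN median was 0.17 without SFN replicate 2, against 0.02 over all tested genes. Both comparisons share the control libraries, so that their like directions are not independent of each other.

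The comparison of SFN+5-FU with SFN asks what the combination differs in from sulforaphane alone, and it turned on 1 library. With all libraries limma called none of the 10 genes. CCND1, CCNE2 and CDK2 had an unadjusted p under 0.05, and over all tested genes 1 gene was called (0.00790%) and 3982 had an unadjusted p under 0.05. Without SFN replicate 2, 7 of the 10 were called over a background of 51.2% (29.8% higher and 21.4% lower), with CCND3, CCNE1, CCNE2, CDK2 and RB1 higher and CCND1 and CDK6 lower in SFN+5-FU.

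CCND1, the most abundant of them, had a log2 fold change of -0.57 in SFN+5-FU against SFN (SE 0.183, adjusted p = 0.134). Leaving out SFN replicate 2, CCND1 fell by 0.83 (SE 0.0568, adjusted p = 2.11e-05). CCNE2 had 0.82 (SE 0.306, adjusted p = 0.135), and without that library it rose by 1.25 (adjusted p = 0.000114). CDK2 had 0.42 (SE 0.151, adjusted p = 0.134), and without that library it rose by 0.63 (adjusted p = 3.94e-05). For these 3 genes SFN replicate 2 lay inside the SFN+5-FU range and the other SFN libraries outside it. Smaller differences without SFN replicate 2 were those of CCNE1 (0.35, adjusted p = 0.0101), CCND3 (0.29, adjusted p = 0.00399), RB1 (0.32, adjusted p = 0.0152) and CDK6 (-0.24, adjusted p = 0.0393). CDK4 had a log2 fold change of -0.0035 (95% interval -0.15 to 0.14), and -0.05 without that library (95% interval -0.16 to 0.07). CCND2 and CDKN1B were not called with it or without it, with log2 fold changes of -0.07 (95% interval -0.31 to 0.17) and 0.08 (95% interval -0.10 to 0.26), or -0.08 (-0.35 to 0.18) and 0.10 (-0.09 to 0.28) without it. CDKN1B was the only 1 of the 10 genes whose SFN+5-FU and SFN libraries did not overlap, against 20.9% of all tested genes. Of the 10, 8 did not overlap once SFN replicate 2 was left out, against 67.4%.

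Ordered by level, CCND1 was the most abundant of the 10 genes in all 3 groups, followed by CDK4, CDK2, CCND3 and RB1 in that order. Over the 9 libraries CCND1 averaged 284 FPKM and ranked 81 of 12662 tested genes, and CDK4 averaged 71.3 FPKM at rank 458. The ranges of these 5 genes did not overlap within a group, except for CDK2 and CCND3 in SFN. The lower end of the order changed. In SFN+5-FU it ran CCNE1, CCNE2, CDK6, CDKN1B and CCND2, with overlapping ranges of CCNE2 and CDK6. In SFN it ran CCNE1, CDK6, CDKN1B, CCNE2 and CCND2, in which CCNE1 overlapped CDK6, and CCNE2, with its high replicate 2, overlapped each of the other 4. In control it ran CDKN1B, CDK6, CCNE1, CCND2 and CCNE2, with overlap between CDKN1B and CDK6 and between CCNE1 and CCND2. Both E cyclins thus lay below p27 in control and above it in SFN+5-FU.

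The balance between partners follows from these levels. CCND1 over CDK4 was 2.29, 2.19 and 1.93 in SFN+5-FU, 3.73, 2.34 and 3.63 in SFN and 7.70, 7.65 and 7.07 in control. This ratio of transcripts separates the control libraries from all others. CDK2 over CDKN1B was 8.99, 8.93 and 9.55 in SFN+5-FU, 6.59, 9.63 and 6.10 in SFN and 4.50, 4.18 and 4.98 in control. CCND1 over CDKN1B was 38.4 ± 2.41 in SFN+5-FU, 63.6 ± 19.9 in SFN and 82.0 ± 6.66 in control (SD, n = 3 each), and for SFN replicates 1 and 3 it was 79.7 and 69.6, near the control values. Ratios of transcripts carry no statement on the proteins.

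**Figure D3:**
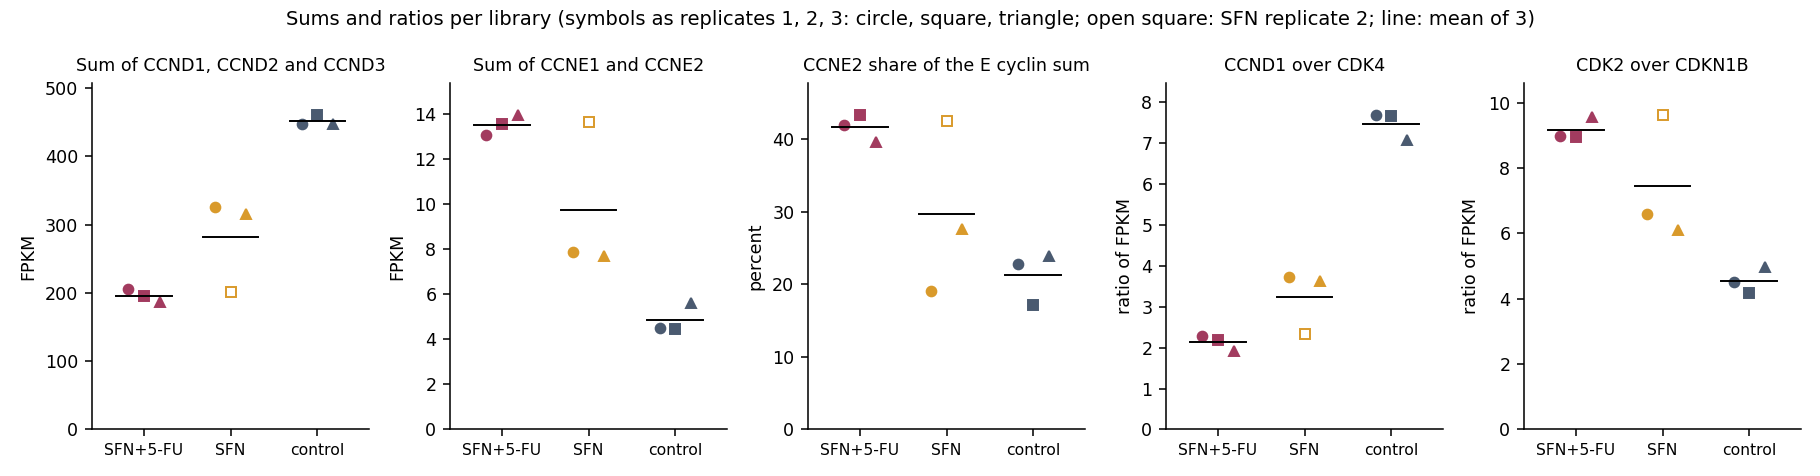
Sums, the share of CCNE2 in the E cyclin sum, and ratios of FPKM in each library of SFN+5-FU, SFN and control (vertical axes linear from 0, in FPKM, percent or as a ratio). Points are libraries with symbols by replicate number, the open square is SFN replicate 2 and the line is the mean of 3. The D cyclin sum averages 196 FPKM in SFN+5-FU and 452 FPKM in control, the E cyclin sum averages 13.5 FPKM in SFN+5-FU and 4.87 FPKM in control, and the open square lies within or next to the SFN+5-FU values in each panel.

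The other genes of the pathway were read as lists, against backgrounds of 38.3% higher and 28.0% lower in SFN+5-FU and 27.5% higher and 22.5% lower in SFN. Genes that E2F factors are known to drive for S-phase entry were higher. Of 20 tested, 17 rose and none fell in SFN+5-FU (median log2 fold change 0.68). In SFN 14 rose and none fell (median 0.45, and 0.40 without SFN replicate 2, also with 14 called). Without that library MYBL2 was no longer called (adjusted p = 0.0523) and MCM6 was (adjusted p = 0.0103). The SFN calls of MYBL2, MCM3, PCNA and TK1 were lost without control replicate 1 and without control replicate 2. RRM2, the small subunit of ribonucleotide reductase, was 94.5, 103 and 99.2 FPKM in SFN+5-FU, 50.6, 91.9 and 60.9 FPKM in SFN and 32.1, 33.2 and 39.3 FPKM in control. It rose by 1.48 in SFN+5-FU (adjusted p = 0.000142) and by 0.90 in SFN (adjusted p = 0.00327), or by 0.66 without SFN replicate 2. The replication licensing factor CDC6 rose by 1.25 in SFN+5-FU (adjusted p = 0.000167) and by 0.87 in SFN (adjusted p = 0.00189), or by 0.73 without SFN replicate 2. UHRF1, which helps to maintain DNA methylation, rose by 1.02 in SFN+5-FU (adjusted p = 0.000134) and by 0.97 in SFN (adjusted p = 0.000287), or by 0.94 without SFN replicate 2.

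Of 12 E2F factors, DP partners and pocket proteins, 9 rose and 2 fell in SFN+5-FU, with a median log2 fold change of 0.45. The rises of E2F3, E2F7 and RBL1 there were not called without SFN+5-FU replicate 3 or without control replicate 1. In SFN 7 rose and 2 fell, also without SFN replicate 2. RBL2, which encodes the pocket protein p130 of resting cells, was 3.19, 3.28 and 2.95 FPKM in SFN+5-FU, 5.34, 3.11 and 5.18 FPKM in SFN and 8.44, 8.35 and 7.61 FPKM in control. It fell by 1.14 in SFN+5-FU (adjusted p = 0.000193) and by 0.75 in SFN (adjusted p = 0.00312), or by 0.54 without SFN replicate 2. Its relative RB1 was called in neither with all libraries. E2F8, a repressor among the E2F factors, rose by 1.43 in SFN+5-FU (adjusted p = 0.000420) and by 0.88 in SFN (adjusted p = 0.00843), or by 0.61 without SFN replicate 2. Of 7 subunits of the DREAM and MuvB complexes, in which pocket proteins or MYBL2 and FOXM1 join the LIN proteins, 6 rose in SFN+5-FU. MYBL2 and FOXM1 rose there by 0.75 and 0.76 (adjusted p = 0.00147 for each), and MYBL2 is counted among the E2F targets above as well. The LIN54 call in SFN+5-FU (adjusted p = 0.0470) was lost without any 1 of the SFN+5-FU or control libraries. In SFN 2 rose, MYBL2 by 0.43 (adjusted p = 0.0314) and LIN9 by 0.36 (adjusted p = 0.0402), and without SFN replicate 2 neither call held (adjusted p = 0.0523 and 0.0680) while FOXM1 rose by 0.16 (adjusted p = 0.0387). The SFN count of 2 was 5 without SFN replicate 1, 1 without SFN replicate 3 or SFN+5-FU replicate 1, and 0 without control replicate 1 or 2.

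The other inhibitors of the kinases diverged. Of 6, 2 rose and 1 fell in SFN+5-FU, and 2 rose and 2 fell in SFN (3 fell without SFN replicate 2, and 1 without SFN replicate 3). CDKN1C, which encodes the p57 relative of p27, was 2.61, 1.95 and 2.65 FPKM in SFN+5-FU, 5.16, 2.78 and 3.94 FPKM in SFN and 16.3, 16.0 and 11.3 FPKM in control. It fell by 2.18 in SFN+5-FU (adjusted p = 2.75e-05) and by 1.66 in SFN (adjusted p = 0.000179), or by 1.47 without SFN replicate 2, a greater fold than that of any D cyclin. CDKN2B, which encodes p15, an inhibitor of CDK4 and CDK6, was 5.88, 7.32 and 5.72 FPKM in SFN+5-FU, 4.54, 6.38 and 5.54 FPKM in SFN and 1.98, 1.63 and 2.11 FPKM in control. It rose by 1.33 in SFN+5-FU (adjusted p = 4.11e-05) and by 1.15 in SFN (adjusted p = 0.000143), or by 1.05 without SFN replicate 2. CDKN1A, which encodes p21, was 58.3, 63.2 and 73.5 FPKM in SFN+5-FU, 46.6, 60.9 and 42.6 FPKM in SFN and 68.1, 68.4 and 67.3 FPKM in control, the highest level among the inhibitors. It fell by 0.45 in SFN (adjusted p = 0.0164), or by 0.60 without SFN replicate 2, and was not called in SFN+5-FU (-0.07, adjusted p = 0.654). In SFN+5-FU against SFN its log2 fold change was 0.38 (adjusted p = 0.134), or 0.53 without SFN replicate 2 (adjusted p = 0.00114).

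Of 11 growth inputs of the D cyclins, 4 rose and 3 fell in SFN+5-FU (4 and 5 without SFN replicate 2, with TCF7L2 and JUN also lower). In SFN 3 rose and 4 fell, with and without SFN replicate 2. ETS2, a transcription factor downstream of RAS signalling, fell by 1.38 in SFN+5-FU (adjusted p = 1.64e-05) and by 1.14 in SFN (adjusted p = 6.43e-05), or by 1.06 without SFN replicate 2. FOSL1, an AP-1 subunit, rose by 1.37 in SFN+5-FU (adjusted p = 0.000187) and by 0.91 in SFN (adjusted p = 0.00280), or by 0.67 without SFN replicate 2. The immediate early gene EGR1 fell by 1.36 in SFN+5-FU (adjusted p = 6.81e-06) and by 1.41 in SFN (adjusted p = 8.97e-06), or by 1.39 without SFN replicate 2. A link between MYC and the E-boxes shown for CDK4 was not tested. MYC, whose product binds E-boxes, is named after its values were seen. It was 96.3, 92.8 and 88.5 FPKM in SFN+5-FU, 92.4, 91.8 and 97.1 FPKM in SFN and 46.5, 49.1 and 44.3 FPKM in control, and SFN replicate 2 did not stand apart from its group for this gene. MYC rose by 0.97 in SFN+5-FU (adjusted p = 7.67e-06) and by 0.99 in SFN (adjusted p = 1.21e-05), or by 1.01 without SFN replicate 2.

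Among 10 tested later cyclins, their kinases and phosphatases, 4 rose and 2 fell in SFN+5-FU (median log2 fold change 0.11, and after the GC and length correction -0.09 with 2 rising and 2 falling). The counts there were 4 and 4 without SFN replicate 2, with CCNB1 and CCNF also lower, and 1 fell without SFN+5-FU replicate 1 or control replicate 3. In SFN 3 rose and 1 fell (6 and 1 without SFN replicate 2). CDC25A, the phosphatase that activates CDK2, rose by 1.38 in SFN+5-FU (adjusted p = 4.82e-05) and by 1.03 in SFN (adjusted p = 0.000353), or by 0.86 without SFN replicate 2. PKMYT1, a kinase that inhibits CDK1, rose by 0.89 in SFN+5-FU (adjusted p = 0.000104) and by 0.77 in SFN (adjusted p = 0.000368), or by 0.67 without SFN replicate 2. CCNB1, the main mitotic cyclin, was 44.2, 43.9 and 43.0 FPKM in SFN+5-FU, 88.7, 43.0 and 95.7 FPKM in SFN and 58.0, 57.6 and 59.2 FPKM in control. The SFN libraries other than replicate 2 thus lay above control and the SFN+5-FU libraries below it. In SFN+5-FU against SFN the log2 fold change of CCNB1 was -0.70 (adjusted p = 0.134). Leaving out SFN replicate 2, CCNB1 fell by 1.06 (adjusted p = 9.76e-06). CCNA1, a cyclin best known from the germ line, was below the expression filter and is named after its values were seen. It was 0.08, 0.15 and 0.15 FPKM in SFN+5-FU, 1.63, 0.16 and 1.42 FPKM in SFN and 0.24, 0.13 and 0.11 FPKM in control.

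Of 10 tested genes for the turnover of G1 cyclins and p27, 3 rose and 3 fell in SFN+5-FU (1 and 4 after the GC and length correction), and 2 rose and 3 fell in SFN (5 and 3 without SFN replicate 2, and 2 and 1 without SFN replicate 3, control replicate 1 or control replicate 2). CKS1B, the cofactor with which the SKP2 ligase recognises p27, was 46.6, 47.9 and 46.9 FPKM in SFN+5-FU, 36.1, 43.6 and 44.2 FPKM in SFN and 24.7, 26.0 and 27.4 FPKM in control. It rose by 0.83 in SFN+5-FU (adjusted p = 4.82e-05) and by 0.64 in SFN (adjusted p = 0.000311), or by 0.60 without SFN replicate 2. SKP2 itself was near 1 FPKM in every library. USP28, a deubiquitinase that opposes FBXW7, fell by 0.67 in SFN+5-FU (adjusted p = 0.000136) and by 0.52 in SFN (adjusted p = 0.000812), or by 0.49 without SFN replicate 2. Of the 3 subunits of the CDK-activating kinase, CDK7 rose by 0.35 in SFN+5-FU (adjusted p = 0.00150, and 0.0960 after the GC and length correction) and by 0.34 in SFN (adjusted p = 0.00267), or by 0.32 without SFN replicate 2. CCNH, its cyclin, rose by 0.37 in SFN (adjusted p = 0.0193) and by 0.49 without SFN replicate 2, a call lost after the GC and length correction, without SFN replicate 3 and without control replicate 1 or 2, where the adjusted p reached 0.223. No gene of any of these 8 lists was called in SFN+5-FU against SFN with all libraries. Without SFN replicate 2, over a background of 29.8% higher and 21.4% lower, 10 of 20 E2F targets were higher and 1 lower, and 5 of 7 DREAM and MuvB subunits were higher. Of the E2F factors and pocket proteins 5 were higher and 1 lower, and of the inhibitors 3 and 1. Of the later cyclins and kinases 1 was higher and 4 lower, of the turnover genes 1 and 3, of the growth inputs 2 and 3, and of the CDK-activating kinase 0 and 2. PCNA, the sliding clamp of DNA replication, was 322, 328 and 333 FPKM in SFN+5-FU and 214, 313 and 249 FPKM in SFN. Its difference on the log2 scale was 0.36 (adjusted p = 0.134), or 0.51 without SFN replicate 2 (adjusted p = 0.00224). TFDP1, the main DP partner of E2F factors, had a log2 fold change of 0.17 there (adjusted p = 0.226), and 0.24 without that library (adjusted p = 0.0344). CKS2, a relative of CKS1B, had -0.25 (adjusted p = 0.164), and -0.40 without that library (adjusted p = 0.000609).

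**Figure D4:**
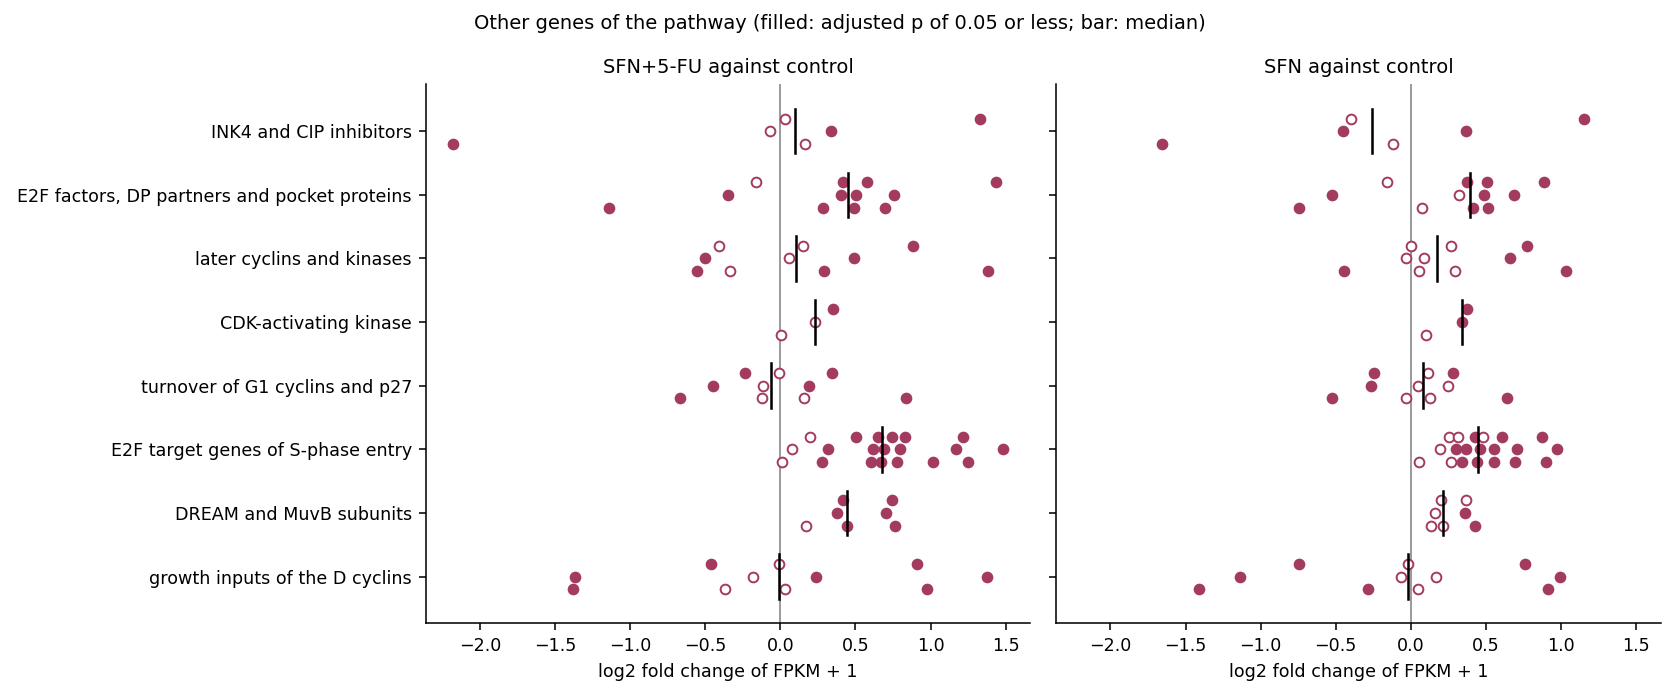
Log2 fold changes of FPKM + 1 (horizontal axes) for the tested genes of 8 lists of the pathway in SFN+5-FU against control and in SFN against control. Points are genes, filled at an adjusted p of 0.05 or less, and the bar is the median of a list. The E2F targets lie to the right with medians of 0.68 and 0.45, while the inhibitors spread from a log2 fold change of -2.18 to 1.33.

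The genes most like the leading members were sought over the 9 libraries among 6811 genes with a mean of at least 5 FPKM, as a description. CCND1 was most like EIF3L, a translation initiation subunit (Pearson r = 0.998 on log2(FPKM + 1)), MAP4, a microtubule-associated protein (0.997), and ATRN (0.997). EIF3L was 41.0, 38.7 and 37.6 FPKM in SFN+5-FU, 52.5, 40.8 and 50.6 FPKM in SFN and 60.7, 62.6 and 61.0 FPKM in control, the order of CCND1 over a smaller range. CCNE1 was most like EDF1 (0.997), the kinase IRAK1 (0.996) and ATP13A1 (0.994). CDK4 was most like the proteasome subunit PSMB2 (0.995), the ubiquitin-like NEDD8 (0.993) and the tubulin TUBB4B (0.991). The 9 libraries fall into groups that all these genes separate, so high correlations arise among many genes.

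For CCND1, the opposite-strand gene LTO1 covers 10.3% of the exonic bases and was between 3.36 and 6.92 FPKM, far below CCND1 in every library. CDK2 shares 14.5% of its exonic bases with the antisense gene AC025162.1, which was at 0 in all libraries, and 2.29% with PMEL, a pigment cell gene at 0.89 to 1.52 FPKM. On its own strand CCND2 shares 13.8% of its exonic bases with the annotated gene AC008012.1, not analysed here. Processed pseudogenes of CCND2, CCND3 and CDK4 are annotated, and CCND3P1, the only 1 of them with values here, did not exceed 0.06 FPKM. Reads that these copies could share with their parent genes cannot be separated in the values.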

How the data were processed

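Poly(A) RNA of 9 libraries was measured. The authors deposited FPKM per gene, to 2 decimals. Per the submitters' processing notes the authors' tools were fastp, StringTie and edgeR, without versions. Aligner, genome build, annotation and strand setting: not given in the sources used here. The smallest value above 0 is 0.01 in each library, so depth cannot be recovered and is unknown.

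Of 41041 identifiers 29784 had a symbol. Genes with a mean of at least 1 FPKM over all libraries were kept (12662) and taken as log2(FPKM + 1). A single limma model with a mean-variance trend was fitted to the 9 libraries, with 3 contrasts, two-sided p-values and Benjamini-Hochberg adjustment over all tested genes in each contrast. Genes at an adjusted p of up to 0.05 are the called ones, and only of these are the words rose and fell used. Sums and ratios have no test. Overlaps and the GC and length correction use GENCODE release 29, and promoters RefSeq GRCh38.p14. The fit was tested on simulated data.

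The members and lists were chosen with earlier results of these data known. All members are named. From each list and contrast the 2 called genes of greatest absolute fold change are named, or the gene of highest level where none is called. Genes most like a member are the 3 of highest correlation. MYC, SKP2, CCNA1, CCNF, TCF7L2, JUN, MCM3, MCM6, TK1, E2F3, E2F7, RBL1, LIN54 and VIL1 were named after their values were seen. R 4.3.3, limma 3.58.1, Python 3.11.15 and matplotlib 3.10.9 were used, and 22 alternatives were tried.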

Additional observations from a re-analysis of the deposited data

How the results depend on the processing

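In SFN+5-FU against control and in SFN against control, CCND1, CCND2, CCND3, CCNE1 and CDK4 kept their direction and their call under every alternative that gave them a value, as did CDK2 and CCNE2 in SFN+5-FU and CDKN1B in SFN. CCND2, CCNE2 and CDKN1B have no value with a filter at a mean of 5 FPKM, which leaves fewer genes: 4903 genes and 5 of the 10 members were then called in SFN+5-FU and 3888 genes and 4 members in SFN. Over all 3 comparisons, 202, 196 and 198 of 217 values each kept direction and call.

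In SFN+5-FU against control, CDK6 was -0.0714 with median-of-ratios scaling, -0.001 with quantile normalization, -0.0657 without mitochondrial transcripts and -0.076 after the GC and length correction. RB1 was called with library weights (0.2348) and in a fit of those 6 libraries (0.2281), and was -0.0219 after the GC and length correction. Leaving out 1 library, values ranged from -0.027 to 0.0611 for CDK6, from -0.2802 to -0.1648 for CDKN1B and from 0.1611 to 0.272 for RB1.

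In SFN against control, CCNE2 was not called with a pseudocount of 5 (0.3937), without a filter (0.886), in a fit of those 6 libraries (0.886) or after the GC and length correction (0.6831). RB1 was -0.0474 with median-of-ratios scaling, -0.0738 with quantile normalization, -0.0486 without mitochondrial transcripts, -0.0146 with library weights and -0.1767 with values corrected for GC and length. CDK6 was called with library weights (0.3236). Leaving out 1 library, values ranged from 0.4581 to 1.1809 for CCNE2, from 0.0753 to 0.2642 for CDK6 and from -0.0941 to 0.1228 for RB1.

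In SFN+5-FU against SFN, library weights, which gave SFN replicate 2 the lowest weight (0.0893), led to 7432 called genes and 7 called members: CCND1 -0.7835, CCND3 0.3172, CCNE1 0.3892, CCNE2 1.0942, CDK6 -0.3003, CDK2 0.5905 and RB1 0.2495, with CCND2 at 0.0022. A fit of those 6 libraries called 0 genes. Leaving out 1 library, called genes ranged from 0 to 6478 and called members from 0 to 7, with the high ends without SFN replicate 2. Values then ranged from -0.8344 to -0.4309 for CCND1, 0.0996 to 0.287 for CCND3, 0.1368 to 0.3506 for CCNE1, 0.5231 to 1.2459 for CCNE2, -0.0489 to 0.0206 for CDK4, -0.2412 to -0.0524 for CDK6, 0.2995 to 0.6301 for CDK2 and 0.1052 to 0.3222 for RB1.

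Libraries with the same replicate number were not treated as pairs in the main fit. Of 9 such pairs, 1 correlated above 0.1 in deviations (-0.143 to 0.107), and 3 of 9 libraries correlated best with their own number. For pairs that include SFN these values cannot decide whether the replicates were paired, because SFN replicate 2 dominated the deviations of its group. SFN replicate 2 correlated at -0.799 and -0.722 with SFN replicates 1 and 3, which correlated with each other at 0.161. Deviations within a group of 3 sum to 0, so pairs within control and within SFN+5-FU were negative too (-0.633 to -0.334). Pairs of control with SFN+5-FU gave 0.0191, -0.0534 and -0.143 for replicates 1, 2 and 3, none above 0.1. A replicate block called 8151 genes in SFN+5-FU against control, 6038 in SFN against control and 0 in SFN+5-FU against SFN, and changed no member's call. With the block and the GC and length correction together 0 genes were called in SFN+5-FU against SFN, CDK6 and RB1 were -0.076 and -0.0219 in SFN+5-FU against control, and CCNE2 and RB1 were 0.6831 and -0.1767 in SFN against control. The causes of these changes were not tested. Depth is unknown, so no limit from counting can be given, and 3 libraries a group limit the precision.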
